A study of Homo sapiens with 11 samples.

Results

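H3K27ac peaks that appeared only after treatment with FHT-1015 were examined in 92-1 cells, an established line from a uveal melanoma, a tumour of the pigment cells of the eye. FHT-1015 inhibits both SMARCA4 and SMARCA2, the alternative ATPase motors of the BAF chromatin remodelling complexes. Cells received DMSO, the solvent, or FHT-1015 for 4 h, and chromatin was precipitated with antibodies against H3K27ac, SMARCA4, MITF, AP-2 (the antibody is labelled TFAP2A) and SOX10. Each antibody had 1 library per condition, so 10 immunoprecipitated libraries of a single cell line stood behind all values. There were no replicates and no test was possible. Every difference below compares a pair of libraries, and the intervals are 95% Wilson intervals that cover counting error only.

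The peaks were chosen by the H3K27ac contrast itself: an FHT-1015 narrow peak was a member when it shared no base with any DMSO narrow peak. By this rule 9521 of 48103 FHT-1015 peaks (19.8%) were members, called FHT-1015-only below and FHT-only in the plots. The remaining 38582 FHT-1015 peaks are called shared. In the opposite direction 27685 of 68093 DMSO peaks shared no base with an FHT-1015 peak and are called DMSO-only. Presence or absence of H3K27ac at the members is therefore the definition and not a result, while the SMARCA4, MITF, AP-2 and SOX10 libraries and the annotation had no part in the choice.

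Acetylation of histone H3 at lysine 27 marks active promoters and enhancers and is deposited by the acetyltransferases p300 and CBP. BAF complexes use ATP to slide or evict nucleosomes and thereby open sites for transcription factors. MITF and SOX10 direct the pigment cell programme, and AP-2 factors act beside them in the neural crest and its derivatives.

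The cell type was checked on marker genes through H3K27ac peaks anywhere in the gene. All 7 melanocyte lineage markers held peaks in both conditions. Neither of the 2 endothelial markers held any, and 1 of 4 epithelial and 1 of 3 blood cell markers did, with at most 5 peaks in a gene. The number of peaks did not set the groups apart. In DMSO the melanocyte markers PMEL, DCT and SOX10 held 5 each and TYRP1 held 1, while the epithelial marker CDH1 held 5. Both neuronal markers held peaks in DMSO and 1 of them did under FHT-1015, and 1 of 2 retinal pigment epithelium markers held peaks in both. The H3K27ac libraries were close in depth, with an FHT-1015 to DMSO ratio of 1.05 recovered from the peak values.

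The members with the highest −log10 p that touched a promoter window of the sequence table are shown first, because these 5 windows let the gene starts with new H3K27ac peaks be seen directly. Each run covers 250 bases before to 50 bases after the annotated start, 5′ to 3′ on the gene's own strand, from RefSeq on GRCh38.p14. Capitals mark any match, on either strand, to the E-boxes CACGTG and CATGTG (the letters MITF reads), to GCCNNNGGC (AP-2), to TGANTCA (AP-1) or to ACAAAG and ACAATG (SOX factors). No 2 matches overlapped in these windows.
DORIP1: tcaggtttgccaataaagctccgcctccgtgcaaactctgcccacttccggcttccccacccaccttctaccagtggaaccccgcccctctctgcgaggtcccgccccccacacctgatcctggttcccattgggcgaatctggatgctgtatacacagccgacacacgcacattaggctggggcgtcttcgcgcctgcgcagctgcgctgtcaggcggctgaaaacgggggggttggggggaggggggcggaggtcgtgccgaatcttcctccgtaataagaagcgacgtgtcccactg
NUS1: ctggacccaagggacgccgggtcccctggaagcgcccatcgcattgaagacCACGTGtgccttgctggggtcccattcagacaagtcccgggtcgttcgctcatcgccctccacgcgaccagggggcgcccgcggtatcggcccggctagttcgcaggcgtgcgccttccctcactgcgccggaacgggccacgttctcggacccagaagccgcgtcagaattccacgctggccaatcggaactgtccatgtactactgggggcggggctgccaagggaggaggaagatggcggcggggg
ALDH18A1: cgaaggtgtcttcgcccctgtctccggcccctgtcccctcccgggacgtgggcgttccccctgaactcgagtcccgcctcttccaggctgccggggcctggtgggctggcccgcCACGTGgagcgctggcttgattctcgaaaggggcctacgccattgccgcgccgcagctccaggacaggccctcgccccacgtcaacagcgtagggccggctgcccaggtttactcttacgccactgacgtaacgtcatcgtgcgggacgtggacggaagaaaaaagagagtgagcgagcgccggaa
LZTFL1: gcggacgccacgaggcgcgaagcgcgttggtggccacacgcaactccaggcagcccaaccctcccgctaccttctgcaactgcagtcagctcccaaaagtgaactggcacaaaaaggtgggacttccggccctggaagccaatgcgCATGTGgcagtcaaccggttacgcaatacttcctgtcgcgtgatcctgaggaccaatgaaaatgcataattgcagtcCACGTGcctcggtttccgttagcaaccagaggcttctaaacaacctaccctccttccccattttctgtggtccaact
RCN3: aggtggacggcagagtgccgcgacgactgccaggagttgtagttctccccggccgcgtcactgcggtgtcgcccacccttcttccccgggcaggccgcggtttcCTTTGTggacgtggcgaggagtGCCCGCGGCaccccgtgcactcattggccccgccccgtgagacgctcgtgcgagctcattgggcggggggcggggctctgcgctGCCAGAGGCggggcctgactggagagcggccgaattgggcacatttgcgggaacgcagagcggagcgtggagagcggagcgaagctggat

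The DORIP1 window is chr14:44897025-44897324 on the plus strand and held none of the letters searched, which says nothing about the factors. NUS1, which encodes a subunit of the dolichol-making prenyltransferase, has its window at chr6:117675219-117675518 (plus strand) with 1 CACGTG. ALDH18A1, an enzyme of proline synthesis, has its window at chr10:95656662-95656961 (minus strand), also with 1 CACGTG. LZTFL1, a regulator of ciliary protein traffic, has its window at chr3:45842070-45842369 (minus strand) with 1 CACGTG and 1 CATGTG. RCN3, a calcium-binding protein of the endoplasmic reticulum, has its window at chr19:49527753-49528052 (plus strand) with 2 GCCNNNGGC and 1 ACAAAG, the last on the opposite strand.

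These letters are common in promoters, so a match is a description and not a binding site. CACGTG stood in 8.34% of all 22199 windows, in 10.5% of the 488 windows touched by an FHT-1015-only peak and in 10.6% of the 11462 touched by a shared peak. GCCNNNGGC stood in 27.3%, 38.1% (33.9 to 42.5) and 32.5% of these groups. CATGTG was found in 8.93%, 6.56% and 6.40%, TGANTCA in 6.15%, 5.12% and 4.07%, ACAAAG in 13.6%, 12.5% and 10.3%, and ACAATG in 8.17%, 5.12% and 5.76%. The windows touched by members were also the richest in G and C, with a median of 69% against 62.3% over all windows and 65.7% at shared peaks, and GCCNNNGGC is itself made of G and C.

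Most FHT-1015-only peaks were small. Their median −log10 p was 4.58, their median fold enrichment 3.11 and their median width 265 bp, against 20.4, 6.31 and 857 bp for shared peaks. DMSO-only peaks had medians of 5.20, 3.27 and 311 bp. The median summit held 13 reads at members, 14 at DMSO-only peaks and 37 at shared peaks. A q-value under 0.05 was reached by 86.6% of members, and a −log10 p of 10 or more by 799 of them (8.39%), beside 14.5% of DMSO-only and 64.4% of shared peaks.

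The label "only" holds for the narrow lists and less strictly for the neighbourhood. A DMSO peak lay within 1 kb of 41.6% of members and within 50 kb of 92.2%, at a median gap of 1786.5 bp. A broad DMSO peak touched 19.7% of members. At the edge of the rule, 42 members lay within 10 bp of a DMSO peak and 56 shared peaks overlapped one by 10 bp or less. Within 100 bp of the edge there were 487 members (median −log10 p 4.43) and 644 shared peaks (4.10). A DMSO peak within 1 kb was about as frequent beside strong members (41.6% at a −log10 p of at least 10) as beside weak ones (40.5% at 2 to 5), while within 10 kb the shares were 61.8% and 75.3%. A broad DMSO peak touched 32.3% of the strong and 15.7% of the weak members. In these bulk libraries a mark on fewer cells and a weaker mark per cell cannot be told apart.

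Within protein-coding genes lay 63.1% of FHT-1015-only peaks (62.1 to 64.0), beside 68.3% of shared and 60.4% of DMSO-only peaks. Only 12.3% of members (11.6 to 12.9) were within 1 kb of either boundary of a gene, against 31.6% of shared and 5.89% of DMSO-only peaks. Starts were taken from the sequence table, which covered 15843 of 20037 protein-coding genes. A start lay within 1 kb of 837 members (8.79%), 27.7% of shared peaks and 3.16% of DMSO-only peaks. Gene ends away from a start accounted for 3.02% of members, close to the 2.12% of shared and 2.51% of DMSO-only peaks. The bulk, 53.9%, lay inside genes away from starts and boundaries, and 32.1% lay outside genes.

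Gene starts were more frequent among strong members than among weak ones. Of the 799 members with a −log10 p of at least 10, 25.4% (203 peaks) lay within 1 kb of a start. DMSO-only peaks of that strength were at starts in 2.27% of cases and shared peaks in 39.5%. In the class from 5 to 10 the shares were 11% for members, 3.41% for DMSO-only and 7.56% for shared peaks, and in the class from 2 to 5 they were 4.85%, 3.23% and 5.01%. FHT-1015-only peaks thus stood at starts more often than DMSO-only peaks in each strength class of these 2 lists. A DMSO peak lay within 1 kb of 66.8% of the members at starts, against 39.5% of those inside genes, so most start members lay beside a peak already called in DMSO.

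**Figure D1:**
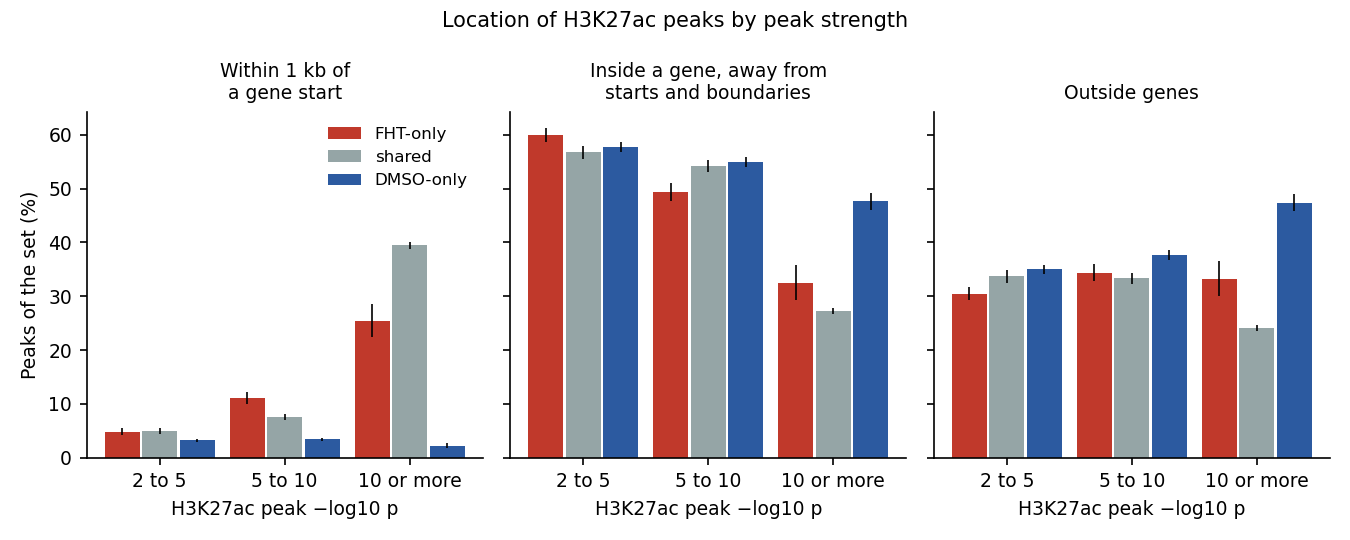
Share (%) of FHT-only, shared and DMSO-only H3K27ac peaks within 1 kb of a gene start, inside a gene away from starts and boundaries, or outside genes, by the −log10 p of the peak; bars are 1 library, lines are 95% Wilson intervals over peaks. Among peaks of 10 or more, 25.4% of FHT-only and 2.27% of DMSO-only peaks lay at a start.

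The member with the strongest call at a start lay 0.316 kb outside DACT3, an inhibitor of Wnt signalling, at chr19:46661499-46662142 with a −log10 p of 53.7 and a fold of 10.2. Factor values below are each list's own −log10 p, which moves with library depth, so no change in size is read from the 2 conditions. MITF and AP-2 peaks covered the DACT3 member in both conditions, at −log10 p 89.0 in DMSO and 93.8 under FHT-1015 for MITF and at 161 and 190 for AP-2. SMARCA4 was called there under FHT-1015 alone, at a low 2.44. SOX10 stood at 11.8 in DMSO and 5.34 under FHT-1015. The nearest DMSO H3K27ac peak was 5652 bp away, so this member did not adjoin a DMSO peak.

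Other leading start members adjoined DMSO peaks. The DORIP1 member, chr14:44896606-44897068, had a −log10 p of 44.9 and carried none of the 4 factors, 133 bp from a DMSO peak. NUS1 (39.7; chr6:117674587-117675340) was 181 bp from one, ALDH18A1 (34.4; chr10:95656889-95657231) 161 bp and MOK, a kinase of the MAP kinase superfamily (29.7; chr14:102304042-102305118), 207 bp. At NUS1 a SOX10 peak of 20.9 in DMSO had no counterpart under FHT-1015, MITF stood at 3.14 in DMSO and 10.4 under FHT-1015, and a SMARCA4 peak of 3.63 was present under FHT-1015 alone. At MOK the AP-2 peak stood at 13.3 and 47.6 in these conditions.

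LZTFL1, RCN3 and TNFRSF21 were farther from DMSO acetylation, with gaps of 10824, 13917 and 97325 bp. At LZTFL1 (chr3:45841780-45842575; H3K27ac −log10 p 33.3) a strong MITF peak was called in both conditions, 138 in DMSO and 102 under FHT-1015. RCN3 (chr19:49527505-49527934; 32.0) had AP-2 at 58.1 and 54.7, SMARCA4 at 7.67 under FHT-1015 alone and SOX10 at 7.61 in DMSO alone. At TNFRSF21, the death receptor DR6 (chr6:47309365-47309970; 29.5), SMARCA4 stood at 7.04 in DMSO and 19 under FHT-1015 while SOX10, 8.71 in DMSO, was not called under FHT-1015. Among these 8 start members SMARCA4 was called in 2 in DMSO and in 6 under FHT-1015, and SOX10 in 5 and 2. Over all 837 members at starts the shares were 39.7% and 58.2% for SMARCA4, and 49.0% and 12.4% for SOX10.

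Away from starts, the leading member lay in a gene-poor stretch at chr11:25576252-25577485, 494 kb from LUZP2, its nearest protein-coding gene, and carried all 4 factors in both conditions. In DMSO and FHT-1015 its SMARCA4 peak stood at 52.9 and 103, MITF at 20.7 and 63.6, AP-2 at 181 and 269 and SOX10 at 116 and 67.5. No DMSO H3K27ac peak lay within 70926 bp. A similar site at chr4:28287144-28288929 (H3K27ac 43.5), 1262 kb from STIM2, had MITF at 9.84 and 34.0, SMARCA4 at 20.2 and 20.1, AP-2 at 56.1 and 39.7, and SOX10 at 12.6 and 11.8. At both sites factor peaks were thus called in DMSO, where no H3K27ac peak was.

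At a member 883 kb from CHORDC1 (chr11:91106119-91108566; H3K27ac 35.9) 3 factors were called under FHT-1015 alone: SMARCA4 at 3.97, MITF at 11.4 and SOX10 at 4.70, while AP-2 stood at 10.0 in DMSO and 21.3 under FHT-1015. A DMSO peak lay 137 bp away. Inside ROBO1, a receptor for the guidance cue SLIT, a member at chr3:79384646-79385986 (17.2) showed the same 3 gains, with SMARCA4 at 4.78, MITF at 3.12 and SOX10 at 6.91, and AP-2 at 12.5 and 15.8. Here the nearest DMSO peak was 177286 bp away. A member 17.2 kb from TARS1, a threonyl-tRNA synthetase gene (chr5:33422941-33423543; 27), gained MITF at 5.14 and SOX10 at 3.02, with SMARCA4 at 2.50 in DMSO and 5.79 under FHT-1015. The gained peaks at these 3 members ranged from 3.02 to 11.4.

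The remaining members among the 12 strongest showed other patterns. Beside USP31, a member of the ubiquitin protease family, SMARCA4 was called at 10.1 under FHT-1015 alone, within a site where AP-2 stood at 172 and 163 (chr16:23149460-23149993; H3K27ac 36.4). Close to RBM17, a splicing factor gene, SMARCA4 stood at 2.57 and 7.71 and MITF at 62.6 and 90.3 in DMSO and FHT-1015 (chr10:6086190-6086836; 35.6). Beyond HMCN1, 20.8 kb from the gene, the 4 factors were called in both conditions at chr1:186211723-186213251 (35.3), with SMARCA4 at 2.45 and 7.54 and SOX10 at 16.4 and 8.84. In PTPRO, a receptor tyrosine phosphatase gene, AP-2 stood at 16.6 and 18.8 and SOX10, 7.19 in DMSO, was not called under FHT-1015 (chr12:15590162-15591186; 34.8). SCP2D1 (chr20:18794027-18794574; 40.4) and the intermediate filament gene SYNM (chr15:99076475-99076925; 36.3) were the nearest genes of sites without SMARCA4, where MITF stood at 37.4 and 35.2 and at 13.2 and 5.55. SOX10 was called at 10 of the 12 sites in DMSO and at 9 under FHT-1015: DORIP1 had none, NUS1 and PTPRO lost it, and CHORDC1 gained it. These 12 did not stand for the strong members as a group. Of the 799 members with a −log10 p of at least 10, SOX10 was called at 61.8% in DMSO and at 23.3% under FHT-1015.

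Further members illustrate single gains and losses. AP-2 alone was gained near ALDH18A1 at 3.57, and inside CTTNBP2NL (chr1:112391011-112391459; H3K27ac 27.4) it was called at 5.61 under FHT-1015 while SOX10, 5.75 in DMSO, was not. A member 206 kb from LRFN5, a synaptic adhesion gene (chr14:42110384-42111039; 28.2), gained AP-2 at 3.45 and SMARCA4 at 3.97. MITF was gained at 5.77 beside a strong AP-2 site, 68.6 in DMSO and 103 under FHT-1015, 88.7 kb from PDZRN4 (chr12:41663490-41664083; 34.0).

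Losses at members were also found at strong H3K27ac calls. Inside KIAA1217 (chr10:23863845-23864539; 31.7) AP-2 was called at 16.1 in DMSO alone while SMARCA4 appeared at 9.65, and SOX10 stood at 73.3 and 25.2. At the start of ACER3, an alkaline ceramidase gene (chr11:76860176-76860765; 24.8), MITF at 6.69 and SOX10 at 20.7 were called in DMSO alone, and AP-2 stood at 18.3 and 25. At a start of DNM2, the membrane-fission GTPase dynamin 2 (chr19:10716902-10717412; 25.5), AP-2 at 6.71 and SOX10 at 8.77 were called in DMSO alone. SMARCA4 was lost inside FHIP1B (2.97 in DMSO; chr11:6234388-6234659; H3K27ac 18.2) and inside ATP2A3, a calcium pump gene (4.10; chr17:3945005-3945276; 16.3). The FHIP1B site kept an AP-2 peak of 137 in DMSO and 147 under FHT-1015.

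FHT-1015-only peaks were spread over 3069 of 20037 protein-coding genes (15.3%), but many of them stood together. There were 425 genes (2.12%) with 3 or more, 200 (0.998%) with 5 or more, 78 (0.389%) with 10 or more and 31 (0.155%) with 20 or more. The 425 genes held 50.6% of the 6005 gene-body members, beside 16.3% of gene-body shared peaks and 12.3% of gene-body DMSO-only peaks, in 10.3% of the summed gene length. The 200 genes held 38.3%, 10.9% and 6.98% in 5.76% of the length. Because these genes were picked by their members, a high share of members in them is built in. Ranked each by its own peaks, the first 200 genes held 38.3% of FHT-1015-only, 19.7% of DMSO-only and 15% of shared gene-body peaks, and a shorter list concentrates more easily than a longer one.

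FHT-1015-only peaks outnumbered DMSO-only peaks in 157 of these 200 genes and were outnumbered in 37, while over all protein-coding genes the counts were 1609 and 5399. The choice of genes by their members favours this count too. The bases covered by H3K27ac peaks were higher under FHT-1015 in 146 of the 200, with a median ratio of 1.16. They were higher in 4864 of all 20037 genes, a base that includes genes with no H3K27ac peak in either condition. The count in the 200 is also favoured by the choice, since the members' bases count toward the FHT-1015 cover. The starts of the 200 genes already carried H3K27ac in DMSO in 86.8% of the 174 with a listed start (80.9 to 91.0), against 60.7% of all 15843 genes and 63.6% of genes of at least 100 kb. That share is favoured by the choice as well, since genes without any H3K27ac peak are absent from the 200 but not from the genes compared. The 200 genes were long, with a median of 232 kb beside 24.1 kb for all genes.

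HMCN1, which encodes the extracellular matrix protein hemicentin-1 (chr1:185734391-186190949), held 58 FHT-1015-only, 19 shared and 3 DMSO-only peaks. PCDH7, a protocadherin (chr4:30720369-31146800), held 58, 33 and 8. KCNQ5, a voltage-gated potassium channel (chr6:72622064-73198853), held 50, 32 and 19. The members in these genes were weak and close together: the median −log10 p was 4.67, 4.56 and 4.42, and the median spacing 2.54, 3.19 and 3.30 kb.

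SEMA3C, a secreted semaphorin (chr7:80742538-80922389), held 41 FHT-1015-only peaks, 9 shared and 0 DMSO-only, and the bases under H3K27ac peaks went from 26.5 kb in DMSO to 49.3 kb. Its relative SEMA3A (chr7:83955777-84492725) held 27, 13 and 2, with 18.2 kb and 34.0 kb covered, and its strongest member reached a −log10 p of 28.7. RPS6KA3, which encodes the kinase RSK2 downstream of ERK (chrX:20149911-20267097), held 37, 15 and 3 within 117 kb, the highest density of the 15 leading genes at 31.6 per 100 kb, and its covered length went from 26 to 55.2 kb.

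Regulators of the lineage and of chromatin were on the list as well. MITF itself (chr3:69739464-69968332) held 41 FHT-1015-only, 50 shared and 17 DMSO-only peaks, with 107 kb covered in DMSO and 124 kb under FHT-1015. ARID1B, a BAF subunit (chr6:156776026-157210779), held 46, 63 and 27, and SOX6, a transcription factor of the SOX family (chr11:15966449-16738477), 45, 63 and 16. In the last 3 genes shared peaks outnumbered the members. The same held for CDKAL1, a tRNA-modifying enzyme gene (31, 93 and 26), whose covered length was slightly lower under FHT-1015 (134 and 130 kb), and for INPP4B, a phosphoinositide phosphatase gene (27, 61 and 13).

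Signalling and cytoskeletal genes completed the first 15. PAG1, an adaptor that anchors the kinase CSK, held 32, 16 and 2. SSH2, a cofilin phosphatase, held 26, 6 and 8. DLC1 held 26, 20 and 8, and EPS8, an actin regulator, 26, 21 and 2. In SSH2 the members spanned only 48.2% of the gene, whereas in MITF, DLC1 and PCDH7 they spanned 98.4%, 98.6% and 97.2%. FHT-1015-only peaks outnumbered DMSO-only peaks in all 15 genes, which were picked by their number of members.

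**Figure D2:**
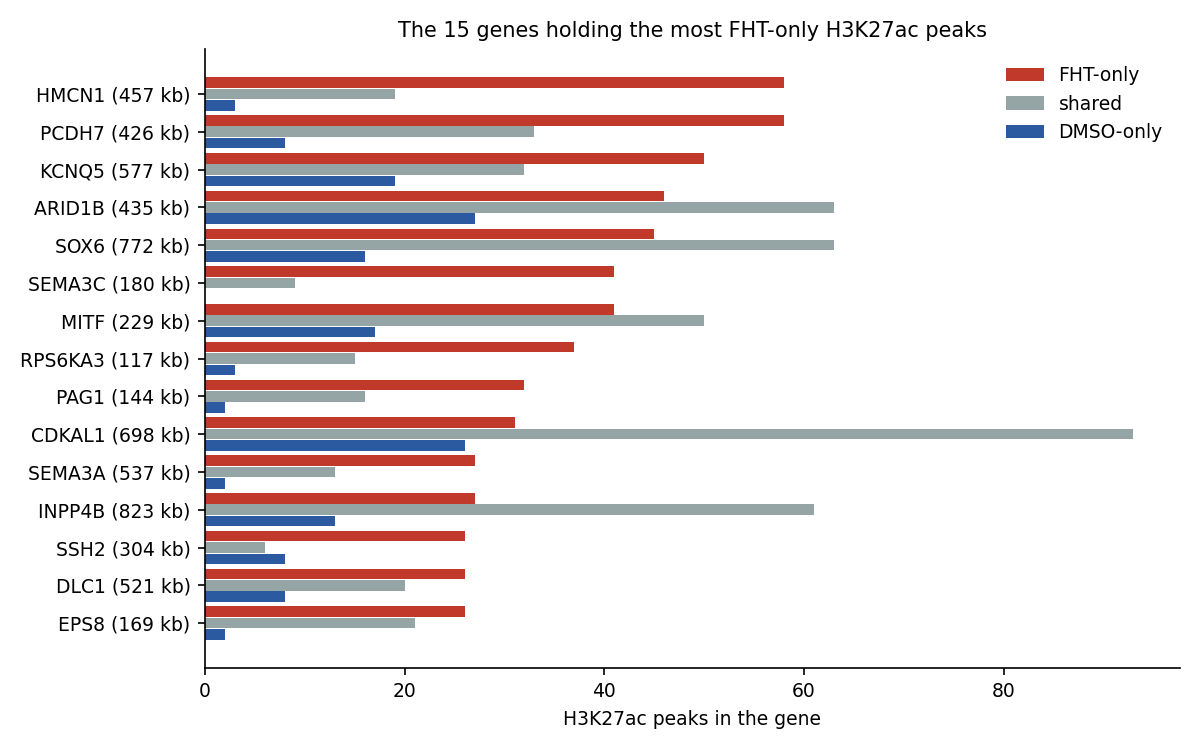
Number of FHT-only, shared and DMSO-only H3K27ac peaks in the 15 protein-coding genes that hold the most FHT-only peaks, with gene length in kb; 1 library per condition, no error bars. FHT-only counts run from 26 to 58, and SEMA3C has 0 DMSO-only peaks.

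**Figure D3:**
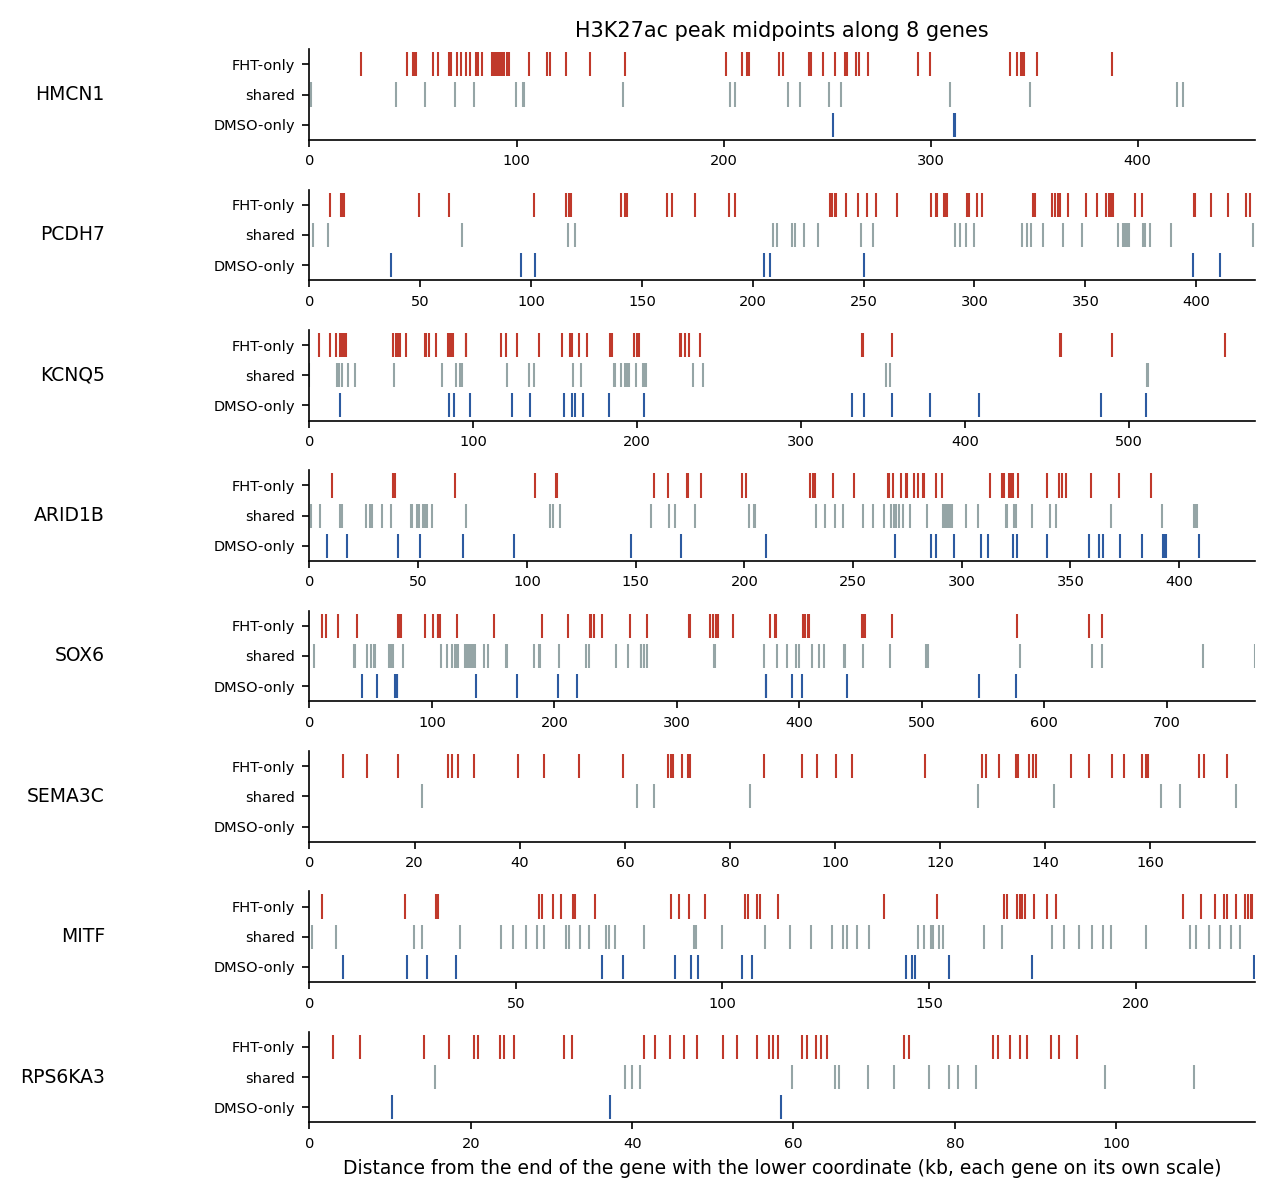
Midpoints of FHT-only, shared and DMSO-only H3K27ac peaks along the first 8 of these genes, as distance in kb from the end with the lower coordinate, each gene on its own scale. The FHT-only peaks lie between and beside shared peaks over most of each gene, and SEMA3C shows 0 DMSO-only peaks.

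Joined across gaps of up to 20 kb, the members formed 607 runs of 3 or more, holding 34.2% of them, and 61 runs of 10 or more. Proximity was not particular to them, since another peak of the same set lay within 20 kb of 52.8% of members and of 71.4% of the more numerous DMSO-only peaks. The largest run, 48 members over 106 kb at chr2:145051569-145157301, contained no protein-coding gene but lay over the long noncoding RNA genes TEX41 and LOC100505498, 531 kb from ZEB2. It held 19 shared and 4 DMSO-only peaks. Another run of 34, at chr4:124051727-124213366, lay over LOC105377406 and LOC105377407, also noncoding. A run of 42 crossed from RPS6KA3 into its neighbour EIF1AX, a translation initiation factor gene, on chromosome X, and a run of 31 crossed TIAM2, TFB1M and CLDN20 on chromosome 6.

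Factor peaks were rare in these large runs. Of the 48 members over TEX41, 0 carried SMARCA4 in either condition, MITF was called at 1 in DMSO and 2 under FHT-1015, AP-2 at 1 and 4, and SOX10 at 4 and 0. In KCNQ5 8 of 50 members carried SMARCA4 in DMSO and 3 under FHT-1015. HMCN1 differed for SOX10, with 6 of 58 members in DMSO and 12 under FHT-1015, at a median −log10 p of 8.65 and 3.91. Over all members in the 200 genes with 5 or more, 62.7% (60.7 to 64.6) carried none of the 4 factors in either condition, beside 37.3% (35.7 to 38.8) of members in other genes. The median H3K27ac −log10 p of the members in these groups was 4.47 and 4.43, and 5.52% and 8.10% of them reached 10. The groups were not matched for place, and factor peaks differed by place. Under FHT-1015 SMARCA4 was called at 58.2% of all members at gene starts and at 20.9% of those inside genes away from starts.

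Gene length was then considered directly. In genes under 20 kb, 10.4% of FHT-1015 gene-body peaks were members, beside 15.4% from 20 to 100 kb, 21.1% from 100 to 300 kb and 26.6% above 300 kb. When peaks at starts and boundaries were left out, the shares were 27%, 25.7%, 25.3% and 28.3%, with no steady order by length. Within the weak class of these peaks (−log10 p from 2 to 5) a gradient remained, from 41.9% (37.8 to 46.1) to 52.7%. In the class from 5 to 10 the shares were 26.3%, 26.6% and 26.7% up to 300 kb and 32.6% above. At 10 or more they were 5.17%, 3.41%, 2.82% and 4.73%, with no steady order. For DMSO-only peaks away from starts the share fell with length, from 60.6% of DMSO peaks in the shortest genes to 46.1% in the longest. Per 100 kb of gene, members numbered 0.869, 0.519, 0.488 and 0.378, so long genes held more of them in number and fewer per length.

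**Figure D4:**
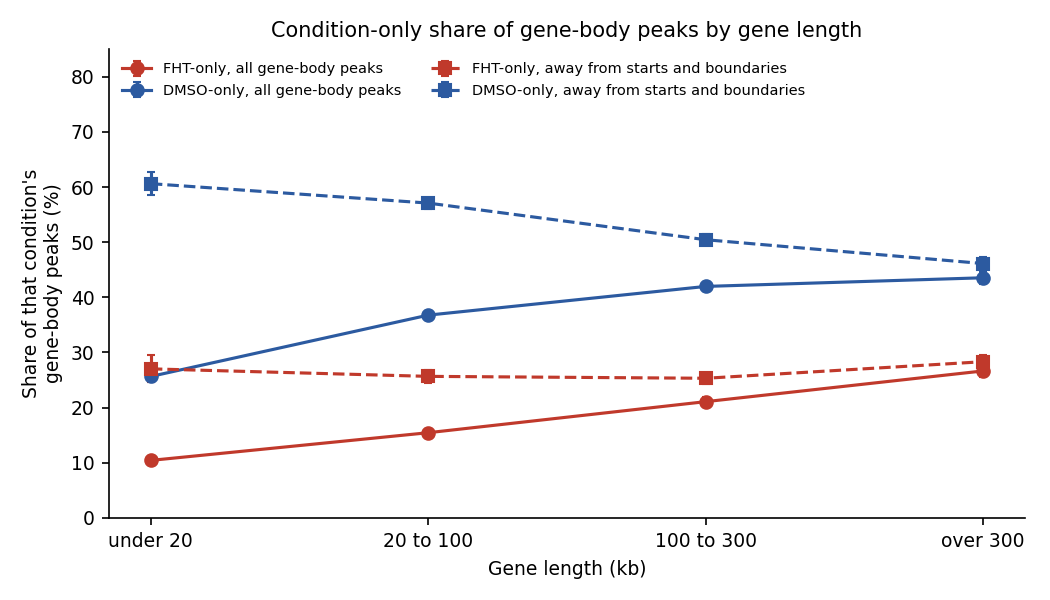
FHT-only peaks as a share (%) of FHT-1015 gene-body peaks, and DMSO-only peaks as a share of DMSO gene-body peaks, by gene length; solid lines are all gene-body peaks, dashed lines those away from starts and boundaries, and error bars are 95% Wilson intervals over peaks. The solid FHT-only line runs from 10.4% to 26.6% and the dashed one from 27% to 28.3%.

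In genes of at least 100 kb with a known strand, 27.3% of members lay in the 20% of the gene nearest the start and between 16.6% and 19.8% in each later segment of that size. Shared peaks were more start-weighted (33.5% in the first segment), and DMSO-only peaks were even (20.3%). Chromosomes differed as well: the share of FHT-1015 peaks that were members ran from 28.2% on chromosome 4 and 26.2% on chromosome 13 to 14.4% on chromosome 22.

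Gene lists, chosen with earlier results of these data known, are described by counts alone. The median gene held 0 members in every list and over all genes, where 15.3% held at least 1. Of 25 melanocyte lineage genes 7 held a member, with 72 members and 78 DMSO-only peaks in all, led by MITF and by RAB38, a melanosome trafficking GTPase (19 members, 4 DMSO-only). Of 28 BAF genes 7 did (66 and 88), led by ARID1B and SMARCC1 (13 and 16), and the target SMARCA4 held 3 members and 0 DMSO-only. Among 19 neural crest transcription factors 3 did (64 and 46): SOX6, SOX5 (14 and 8) and ETS1 (5 and 15). In the long neuronal adhesion and synapse list, the longest genes at a median of 1161 kb, 23 of 48 held a member, with 135 members but 276 DMSO-only peaks. Of all protein-coding genes above 300 kb 45.5% held a member, close to the share in this list. IL1RAPL1 (23 and 6) and NLGN1 (21 and 2), both synaptic adhesion genes, led the list.

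NR4A3, an orphan nuclear receptor of the immediate early class, led the AP-1 and immediate early list. It held 13 members, 2 shared and 0 DMSO-only peaks, a density of 28.9 members per 100 kb. SOX10 was called at 0 of the 13 in DMSO and at 6 under FHT-1015 (median −log10 p 4.34), AP-2 at 0 and 4 (6.60), MITF at 0 and 1, and SMARCA4 at 1 and 1. The other 4 genes with a member among the 20 of that list, such as KLF6 and NR4A1, added 4 members in all. Of 16 MAP kinase feedback genes 4 held a member, with 11 members and 23 DMSO-only peaks in all. The ETS factor ETV1 (7 and 1) and SPRY1 (2 and 0) led it, and the related ETV5 held 1 and 7. Of 19 cell adhesion genes 8 did (69 and 40), led by PCDH7 and ALCAM (4 and 0).

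The remaining lists held few members. ZEB2, a zinc finger transcription factor active in the melanocyte lineage and in mesenchymal change, held 25 of the 26 members of the TGF-beta list, with 8 DMSO-only peaks, and TGFB1 held the other. Of 17 p53 targets 4 held 1 each, ZMAT3 and TP53INP1 among them. Of 16 YAP and TEAD targets 2 held a member, TEAD1 (3) and NF2 (1), against 38 DMSO-only peaks in the list. One interferon gene of 20, IFIT2, held 1 member, and 3 of 12 housekeeping genes did, with YWHAZ at 2 and PGK1 at 1.

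SMARCA4 was called at more of the FHT-1015-only peaks after its inhibition than before. A SMARCA4 peak touched 23.2% of members in DMSO (22.4 to 24.1) and 26.6% under FHT-1015 (25.7 to 27.5), although the SMARCA4 list as a whole was shorter under FHT-1015 (ratio 0.880) and its library shallower (depth ratio 0.918). At shared peaks the shares were 75.1% and 73.2%, and at DMSO-only peaks 41.9% and 23.6%. It was gained (called under FHT-1015 alone) at 1078 members (11.3%) and lost (called in DMSO alone) at 754 (7.92%), where over all FHT-1015 H3K27ac peaks it was gained at 8.73% and lost at 9.56%. The difference at members was 3.40 percentage points. It was 1.95 when the SMARCA4 summit had to lie inside the H3K27ac peak, 5.62 with equal numbers of SMARCA4 peaks and 12.3 at the 799 members whose −log10 p reached 10.

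The SMARCA4 gain was greatest at gene starts. There 39.7% of members carried it in DMSO and 58.2% under FHT-1015, with 188 gained and 33 lost. Shared peaks at starts differed in the same direction, from 79.6% to 86.9%, and DMSO-only peaks at starts little, from 50.2% to 52.2%. Inside genes away from starts the members' shares were 19.6% and 20.9%, and outside genes 24.8% and 27.3%. Shared peaks in those places had lower shares under FHT-1015, with differences of −6.29 and −6.83 percentage points.

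MITF and AP-2 were held at nearly the same share of members. MITF touched 17% in DMSO and 14.9% under FHT-1015, a difference of −2.15 percentage points, beside −14.9 at shared and −23.5 at DMSO-only peaks. Shared and DMSO-only peaks started from higher MITF shares in DMSO, 62.1% and 31.9%, which leaves more room for a drop in points. MITF was gained at 5.37% of members and lost at 7.52%, against 4.36% and 16.7% over all FHT-1015 H3K27ac peaks. AP-2 touched 27.7% and 25.8%, a difference of −1.85, beside −12.4 and −21.8 from DMSO shares of 74.2% and 37.9%. Its gains and losses were 4.80% and 6.65% of members, against 2.88% and 13.2% over all. The MITF library was shallower under FHT-1015 (depth ratio 0.854) and the AP-2 library slightly so (0.960). The MITF list was nevertheless slightly longer under FHT-1015 (ratio 1.04), while the AP-2 list was shorter (0.834). The part of depth and list length in these differences was not tested. The direction was not fixed: with equal numbers of AP-2 peaks the AP-2 difference was 0.956, and at members with a −log10 p of at least 10 it was 2.75 for AP-2 and 0.626 for MITF. At these strong members AP-2 was gained at 69 and lost at 47. MITF was gained at 74 and lost at 69, which is nearly even.

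SOX10 was called at far fewer members under FHT-1015. It touched 28.7% in DMSO (27.8 to 29.6) and 8.32% under FHT-1015 (7.78 to 8.89), lost at 2151 members (22.6%) and gained at 213 (2.24%). Over all FHT-1015 H3K27ac peaks it was lost at 41.9% and gained at 0.827%. At shared peaks its share went from 79.9% to 33.6% and at DMSO-only peaks from 40.4% to 1.66%. The SOX10 list under FHT-1015 had 0.322 times as many peaks as in DMSO, and with lists of equal number the difference at members was −0.830 in place of −20.4 percentage points. The relative depth of the SOX10 libraries was not recovered, since only 0.412% of peaks in the FHT-1015 list gave whole read numbers by the calculation used for the other lists. Members that gained SOX10 did so with weak peaks, at a median −log10 p of 3.94, of which 40.3% had a q-value under 0.05.

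**Figure D5:**
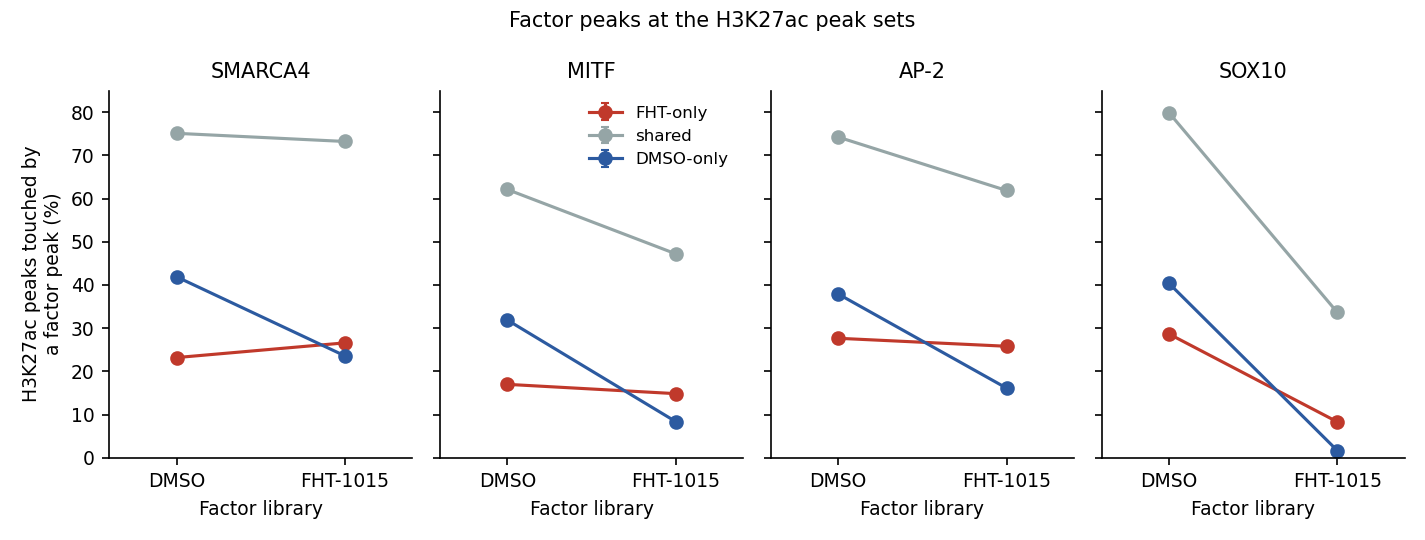
Share (%) of FHT-only, shared and DMSO-only H3K27ac peaks touched by a SMARCA4, MITF, AP-2 or SOX10 peak in the DMSO and the FHT-1015 library; points are 1 library each and error bars are 95% Wilson intervals over peaks, mostly smaller than the points. At FHT-only peaks SMARCA4 goes from 23.2% to 26.6% and SOX10 from 28.7% to 8.32%.

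The contrast with shared peaks was also present among weak peaks. Among H3K27ac peaks with a −log10 p of 2 to 5, SMARCA4 was at 18.5% and 20.0% of members but at 52.3% and 41.0% of shared peaks in DMSO and FHT-1015. MITF was at 13.2% and 10.6% of members and at 36.3% and 15.4% of shared peaks of this class, and AP-2 at 19.6% and 17% beside 42.0% and 22.5%. For SOX10 the shares were 20.2% and 4.81% beside 47.5% and 3.50%. Weak FHT-1015-only peaks thus carried fewer factor peaks in DMSO than weak shared peaks, with a smaller difference between conditions for each factor. The classes used the FHT-1015 −log10 p alone. Members had no DMSO peak by rule, and the DMSO strength of shared peaks was not matched, so part of this contrast may be built in. Peak width was not matched either. At a −log10 p of at least 10, SMARCA4 was higher under FHT-1015 in both sets, at 37.2% and 49.4% of members and 84.2% and 87.0% of shared peaks.

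A sizeable group of members had no factor peak of any kind. None of the 4 factors was called in either condition at 43.6% of members (42.6 to 44.6), against 7.59% of shared and 33.3% of DMSO-only peaks. At gene starts this share was 14% and among the strongest members 14.6%. The sets were not matched for peak width, with medians of 265 bp for members, 857 bp for shared and 311 bp for DMSO-only peaks. A wider peak has more bases for a factor peak to touch, which applies to every factor share compared between the sets. The part of width in these differences was not tested. In DMSO, where members had no H3K27ac peak, 53.5% carried none of the 4 and a factor peak touched the others. Whether those factor peaks also reached a neighbouring DMSO H3K27ac peak was not examined. All 4 were present at 6.09% of members in DMSO and at 2.12% under FHT-1015, beside 40.2% and 19.1% of all FHT-1015 H3K27ac peaks. SMARCA4 without MITF, AP-2 or SOX10 was found at 4.95% of members in DMSO and 9.44% under FHT-1015. It was found at 3.41% and 11.1% of all FHT-1015 H3K27ac peaks and at 3.02% and 11.5% of shared ones, so this difference was not particular to the members.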

How the data were processed

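Peak lists of 10 immunoprecipitated libraries were used, with groups taken from the sample titles. The submitters' processing notes name BWA, SAMtools, Picard, MACS2 and hg38, with no settings. Per the columns of the deposited files, the authors gave each peak a score, a fold enrichment (a ratio over background), a −log10 p and a −log10 q (from p-values and q-values) and a summit position, for each library separately. The score was not used. Values were used to describe, rank and filter peaks within a list; where those of both conditions stand side by side they were not corrected for depth.

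Identical intervals were counted once. Peaks were compared by overlap of at least 1 base with Python 3.11.15, numpy 2.4.6 and pandas 2.3.3, in code tested on simulated intervals. Genes and promoter windows came from RefSeq on GRCh38.p14, where 20037 protein-coding genes were matched and starts were listed for 15843. Summit reads and relative depth were recovered from fold and p under a Poisson form, with a tolerance of 0.002. Members and gene lists were chosen with earlier results of these data known. Named were the 12 members with the highest −log10 p, the 15 genes with the most members, the 8 strongest members at starts, 3 gained and 2 lost members per factor, and the 2 leading genes per list. One named member on chromosome 8 is not described. The large runs with their genes, and ETS1, ETV5, SMARCA4 and NR4A1 in their lists, were added after their values were seen.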

Additional observations from a re-analysis of the deposited data

How the results depend on the processing

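No paired analysis was possible because each antibody had 1 library per condition, and for the same reason no library could be left out. Of 50 alternatives, 17 stayed within the counting interval of the reported value, 30 moved beyond it and 3 changed sign. The FHT-1015-only share of FHT-1015 H3K27ac peaks (19.8%) was 18.1% at a q-value under 0.05, 3.12% at a −log10 p of at least 10, 15.9% without contact to DMSO narrow or broad peaks, 11.6% without a DMSO peak within 1 kb, 25% when coverage by DMSO peaks of under 50% of a peak was allowed and 18.3% in the broad lists. The share inside genes (63.1%) was 73.6% with all annotated genes. The boundary share (12.3%) was 20.3% within 2.5 kb, 11.4% by summit, 12.9% at a q-value under 0.05 and 8.20% without a DMSO peak within 1 kb. The share in genes holding 3 or more (50.6%) was 38.3% with 5 or more, 69.6% in genes of at least 100 kb, 48.3% at a q-value under 0.05 and 47.4% without a DMSO peak within 1 kb.

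For the factors, FHT-1015 minus DMSO in percentage points, the factor summit inside the H3K27ac peak gave 1.95 for SMARCA4, −1.19 for MITF and −11.1 for SOX10. Factor peaks with a q-value under 0.05 gave −2.89 for MITF and −21.7 for SOX10, and those with a −log10 p of at least 10 gave −2.75 for AP-2 and −9.84 for SOX10. Equal numbers of factor peaks gave 5.62 for SMARCA4, 0.956 for AP-2 and −0.830 for SOX10. Settings chosen after seeing the data were members with a −log10 p of at least 10 (12.3 for SMARCA4, 0.626 for MITF, 2.75 for AP-2, −38.5 for SOX10), members without a DMSO H3K27ac peak within 1 kb (−22.9 for SOX10) and members outside genes holding 5 or more (4.61 for SMARCA4, −3.02 for MITF, −24.4 for SOX10). Among the alternatives run, SMARCA4 stayed above 0 and SOX10 below 0. The causes of these shifts were not tested.

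The members' summits held a median of 13 reads. Peak presence depends on the caller's threshold, so a member may carry DMSO signal below it. The wording of every comparison is limited to 1 library per condition in 1 cell line.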
